A study of Rattus with 6 samples.

Results

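Smooth muscle contractile genes were followed in rat bone marrow mesenchymal stem cells (BMSC), the adherent stromal cells of marrow, cultured for 4 days in the absence or presence of dexamethasone, a synthetic glucocorticoid, at 100 uM. The genes were chosen by name, with earlier results of these data known. They make up a list of contractile filament genes and their coactivator: Acta2, Tagln, Cnn1, Cnn2, Myl9, Tpm1, Tpm2, Lmod1, Myh11 and Myocd. The deposited count table held all 10 of them among 30211 genes. RNA sequencing gave 3 control and 3 dexamethasone libraries, all from cells labelled wild type, and the groups were read from sample titles because the treatment tag reads DEX for all 6. Neither the rats' strain, age and sex, nor a vehicle for the controls, nor the purity of the cells was stated in the sources at hand. The labels also do not say whether the replicates were separate cultures, so the p-values below measure only the spread between these libraries, which may be technical.

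Smooth muscle contracts when myosin slides along actin filaments, and phosphorylation of the regulatory myosin light chain switches it on. The thin filament is made of actin with tropomyosin along its groove, and calponin, transgelin and caldesmon bind to it. Most of these genes share a control element bound by serum response factor, which works with myocardin or with the myocardin-related factors that move into the nucleus when free actin is used up. Cultured stromal cells and myofibroblasts make part of this programme in stress fibres, together with non-muscle members of the same families. Several of these genes, Tpm1, Tpm2 and Myh11 among them, make different products by splicing, and counts per gene do not separate them.

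Library totals ran from 34835072 to 41676315 counts, and mitochondrial genes took 2.06% to 2.20% of each. As a check of the labels, Fkbp5, a target of the glucocorticoid receptor, stood at 69.8 ± 1.06 CPM (counts after TMM scaling for library size, mean ± SD, n = 3) in the controls and 1370.1 ± 72.2 CPM with dexamethasone. All 12 listed marrow stromal markers were tested, and their summed level was 8066 to 8088 CPM in the controls and 3082 to 3111 CPM with dexamethasone. Grem1 carried most of that difference, at 3669 CPM in the controls and 113 CPM with dexamethasone. Of the 12, 4 rose, 7 fell and Thy1 was not called (log2 fold change 0.010). Over all tested genes, 32.3% rose and 31.7% fell. Tested against a fold change of 1.5, 2 rises and 4 falls of the 12 passed, where 20.0% of all genes did. The rises were Pdgfra, Nt5e, Lepr and Cxcl12 (log2 fold changes 0.69, 0.60, 1.79 and 0.066). The libraries of the 2 groups overlapped for Cxcl12 and for Eng, which was called as a fall (-0.20). The 3 with the smallest p were the falls of Grem1 (-5.02), Prrx1 (-3.27) and Pdgfrb (-2.17). Lepr was read at only 0.262 CPM in the controls and 0.913 CPM with dexamethasone. Its exons overlap those of another gene model on the same strand, AC129815.1, at 0.935 and 1.77 CPM. How shared reads were assigned is not known, so the level and rise of Lepr are uncertain. The members of this list beyond those 3 were named after their values were seen.

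Most of the contractile genes were lower with dexamethasone, and the 2 that rose were a filament nucleator and the coactivator itself. Of the 10, 6 fell (Acta2, Tagln, Cnn1, Tpm1, Cnn2 and Tpm2), 2 rose (Lmod1 and Myocd), and 2 were not called (Myl9 and Myh11). The call required an adjusted p below 0.05 in the quasi-likelihood test of edgeR, after Benjamini-Hochberg adjustment over all 14111 tested genes. In that comparison 64.0% of all tested genes were called, 32.3% as rises and 31.7% as falls, so a call by itself sets few genes apart here. Tested against a fold change of 1.5, 6 of the 10 passed (Acta2, Tagln, Tpm1, Cnn2, Lmod1 and Myocd), where 20.0% of all genes did. Changes of at least 4-fold with an adjusted p below 0.05 were found for 4 of the 10 (Acta2, Tagln, Lmod1 and Myocd), against 5.90% of all genes. The libraries of the 2 groups did not overlap for 9 of the 10, against 66.9% of all genes. The median log2 fold change of the 10 was -0.68, and that of all tested genes was -0.00019. The median size of change, regardless of direction, was 1.26 for the 10 and 0.31 for all genes. Because the 10 were chosen with earlier results of these data known, these comparisons with all genes are descriptive only.

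**Figure D1:**
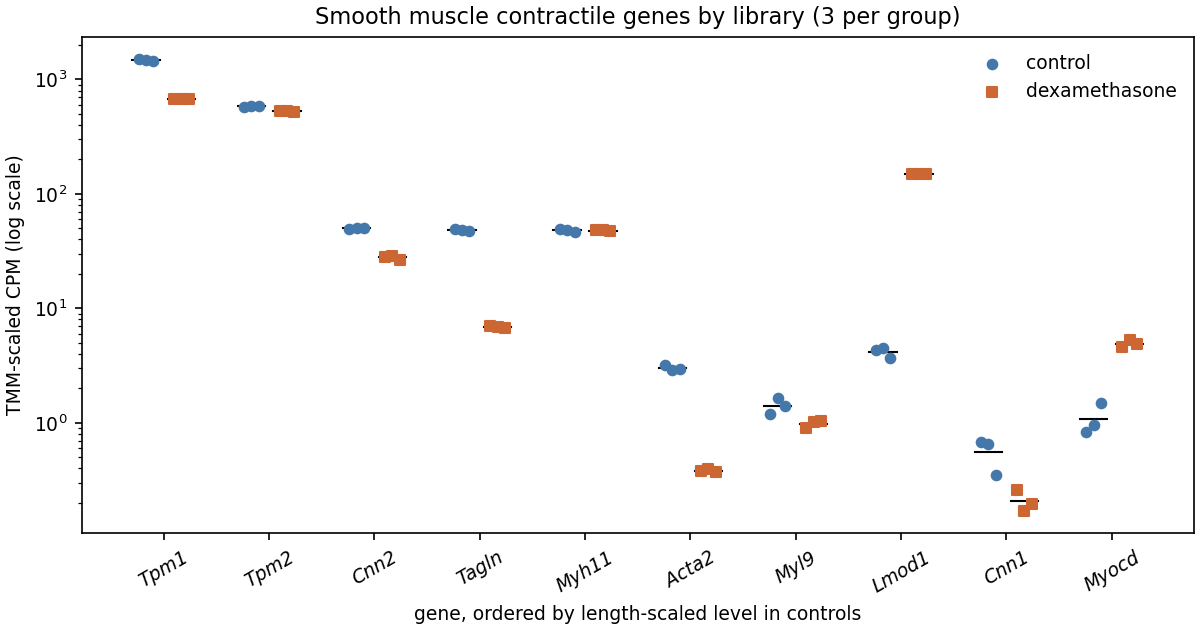
TMM-scaled CPM on a log axis for each contractile gene in the 3 control libraries (circles) and the 3 dexamethasone libraries (squares), with short black lines at the group means. The 2 groups are apart for every gene except Myh11, Lmod1 and Myocd sit higher with dexamethasone, and the lowest level is that of Cnn1.

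**Figure D2:**
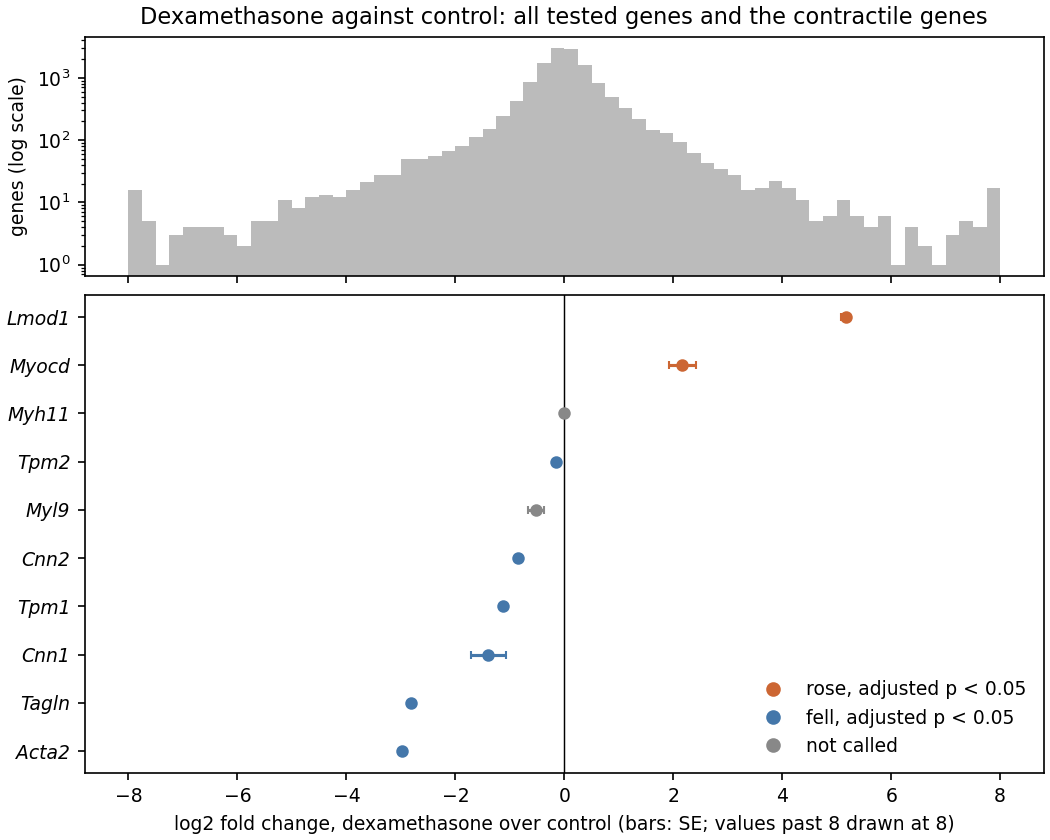
Upper panel, the number of tested genes (log axis) by log2 fold change of dexamethasone over control; lower panel, the contractile genes on the same axis with SE bars, coloured by call. The members range from -2.97 for Acta2 to 5.16 for Lmod1, while most genes lie near 0.

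Myocd encodes myocardin, the coactivator of serum response factor that drives smooth muscle genes (chromosome 10, 51683540 to 51778986, minus strand, in the rat build of the deposited table). It had 0.830, 0.963 and 1.47 CPM in control replicates 1 to 3 and 4.55, 5.30 and 4.93 CPM in dexamethasone replicates 1 to 3. Every dexamethasone library was above every control, and control replicate 3 was the highest of the controls. Myocd rose 4.49-fold, a log2 fold change of 2.17 ± 0.25 (SE; adjusted p = 3.95e-14, edgeR). The counts behind this were small, 129 over the controls and 579 over the dexamethasone libraries. With counts halved because low counts came mostly in steps of 2, the counting error alone gave a ratio of 4.46 with a 95% interval of 3.40 to 5.93.

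Acta2 encodes smooth muscle alpha-actin, the actin that marks both smooth muscle and myofibroblasts (chromosome 1, 252537615 to 252550394, minus strand). It had 3.22, 2.86 and 2.95 CPM in the controls, against 0.379, 0.397 and 0.369 CPM with dexamethasone. The groups were far apart. The libraries within each were close, but 14 to 16 counts per dexamethasone library are too few to read that closeness, or the SE below, as precision. Acta2 fell 7.83-fold, a log2 fold change of -2.97 ± 0.056 (SE; adjusted p = 1.87e-14, edgeR). Even in the controls the level was low for a gene that dominates contractile cells, with 113 to 124 counts in each library, and the dexamethasone libraries held 14 to 16. From halved counts summed over each group, the ratio of control to dexamethasone was 7.74, with an exact binomial 95% interval of 4.998 to 12.5 that covers counting error only.

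Myh11 encodes smooth muscle myosin heavy chain, a late marker of the mature smooth muscle cell (chromosome 10, 764421 to 859184, plus strand). It had 49.6, 47.9 and 46.9 CPM in the controls, against 48.0, 47.9 and 47.0 CPM with dexamethasone. These ranges overlapped, and Myh11 was the one contractile gene of the 10 whose groups did. Its log2 fold change was -0.013 ± 0.026 (SE; adjusted p = 0.815, edgeR), and a ratio of counts of 0.991 had a 95% counting interval of 0.940 to 1.04.

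Myl9 encodes the regulatory myosin light chain of smooth muscle, the chain that is phosphorylated to start contraction (chromosome 3, 152857592 to 152863960, plus strand). It had 1.19, 1.65 and 1.40 CPM in the controls, against 0.900, 1.02 and 1.03 CPM with dexamethasone. The dexamethasone libraries were all below the controls, and the closest pair lay at 1.03 and 1.19 CPM. The log2 fold change was -0.52 ± 0.14 (SE; adjusted p = 0.0638, edgeR) and was not called. It was called without control replicate 1 (adjusted p = 0.0476) and with counts halved (adjusted p = 0.0468).

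Tpm1 encodes alpha-tropomyosin, which lies along actin and governs what may bind to it (chromosome 8, 72814740 to 72842228, minus strand). It had 1498, 1484 and 1443 CPM in the controls, against 669, 674 and 675 CPM with dexamethasone. The fall was 2.19-fold, a log2 fold change of -1.13 ± 0.017 (SE; adjusted p = 1.45e-35, edgeR), with the libraries of each group close together. Tpm2 encodes beta-tropomyosin (chromosome 5, 59016622 to 59025631, minus strand). It had 569, 590 and 586 CPM in the controls, against 529, 527 and 519.6 CPM with dexamethasone. Tpm2 fell by only 1.11-fold, a log2 fold change of -0.15 ± 0.018 (SE; adjusted p = 3.25e-06, edgeR), although the groups did not overlap. That call was lost against a fold of 1.5 (adjusted p = 1) and under a biological coefficient of variation fixed at 0.2 (adjusted p = 0.743).

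Cnn1 encodes calponin 1, the smooth muscle calponin that binds actin and slows the myosin motor (chromosome 8, 23113048 to 23121761, plus strand). It had 0.674, 0.659 and 0.350 CPM in the controls, against 0.261, 0.170 and 0.197 CPM with dexamethasone. All of these were close to the limit of detection: 6 counts, taken as 3 read pairs, came to 0.142 to 0.170 CPM by library, and the dexamethasone libraries held 11, 6 and 8 counts. The log2 fold change was -1.39 ± 0.32 (SE; adjusted p = 0.00519, edgeR), and the ratio of control to dexamethasone, 2.54, had a 95% counting interval of 1.30 to 5.26. Against a fold of 1.5 the call was lost (adjusted p = 0.0541).

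Cnn2 encodes calponin 2, the form found in many non-muscle cells as well (chromosome 7, 12782491 to 12787750, plus strand). It had 49.5, 50.2 and 50.5 CPM in the controls, against 28.3, 28.6 and 26.7 CPM with dexamethasone. It fell 1.80-fold, with groups well apart, a log2 fold change of -0.85 ± 0.032 (SE; adjusted p = 1.42e-19, edgeR).

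Tagln encodes transgelin, or SM22-alpha, an early smooth muscle protein that cross-links actin (chromosome 8, 50222896 to 50231357, minus strand). It had 49.1, 48.2 and 47.3 CPM in the controls, against 7.06, 6.86 and 6.72 CPM with dexamethasone. The fall was 6.99-fold and even between libraries, a log2 fold change of -2.81 ± 0.026 (SE; adjusted p = 6.84e-35, edgeR). Of its exon length, 204 bases (16.3%) overlap exons of Sidt2 on the same strand, and Sidt2 went the other way, from 15.6 to 22.2 CPM.

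Lmod1 encodes leiomodin 1, which nucleates actin filaments in smooth muscle (chromosome 13, 52147555 to 52190228, plus strand). It had 4.30, 4.51 and 3.70 CPM in the controls, against 150.4, 149.5 and 148 CPM with dexamethasone. The rise was 35.8-fold, a log2 fold change of 5.16 ± 0.086 (SE; adjusted p = 8.20e-48, edgeR), and the dexamethasone libraries differed by under 3 CPM. Over the group, 492 counts in the controls stood against 17638 with dexamethasone.

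The spread between replicates differed from gene to gene. The coefficient of variation (SD over mean) lay between 0.496% and 3.66% in both groups for Tpm1, Tpm2, Cnn2, Tagln and Myh11. It was 32.6% and 22.2% for Cnn1 in the controls and with dexamethasone, 31.2% and 7.66% for Myocd, and 16.1% and 7.50% for Myl9. For Acta2 it was 6.10% and 3.66%, and for Lmod1 10.1% and 0.742%. The dexamethasone libraries of Acta2 held only 14 to 16 counts each, too few for the 3.66% to be read as precision.

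Levels can be set beside each other between genes only per length, so counts were also divided by the exon length listed for each gene and scaled to TPM, a level per length that sums to the same total in every library. In the controls the order from the top was Tpm1 at 933 ± 17.6 TPM (SD, n = 3), Tpm2 at 769.6 ± 14.6, Cnn2 at 136 ± 1.36, Tagln at 75.7 ± 1.42, Myh11 at 14.2 ± 0.399, Acta2 at 4.26 ± 0.260, Myl9 at 2.52 ± 0.405, Lmod1 at 1.83 ± 0.184, Cnn1 at 0.737 ± 0.240 and Myocd at 0.422 ± 0.132 TPM. Neighbours in this order did not overlap, except Cnn1 and Myocd. With dexamethasone the order was Tpm2 at 694 ± 5.98 TPM, Tpm1 at 425 ± 2.12, Cnn2 at 75.9 ± 2.71, Lmod1 at 65.4 ± 0.466, Myh11 at 14.0 ± 0.156, Tagln at 10.8 ± 0.264, Myocd at 1.91 ± 0.144, Myl9 at 1.76 ± 0.132, Acta2 at 0.541 ± 0.0192 and Cnn1 at 0.275 ± 0.0612 TPM. Here Myocd and Myl9 were the only neighbours that overlapped. Lmod1 had moved from the eighth place to the fourth and Tpm1 had passed below Tpm2. That crossing depends on the listed exon lengths, 3116 bases for Tpm1 and 1490 for Tpm2. In CPM, Tpm1 stayed above Tpm2 with dexamethasone, at 673 and 525 CPM. The tropomyosins dominated the set: Tpm1 and Tpm2 together held 87.8% to 87.9% of the summed TPM in the controls and 86.7% to 87.0% with dexamethasone. Among all genes of the table, Tpm1 went from rank 148 to rank 367 by TPM, Acta2 from 10278 to 13677, and Lmod1 from 11850 to 2564. All 10 genes together took 0.217% to 0.219% of the counts in the controls and 0.145% to 0.146% with dexamethasone.

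Most contractile genes have close relatives that other cells use, so each was set against its family. The share of a member in its family's summed TPM was compared by an exact two-sided permutation test over the 6 libraries, which cannot go below p = 0.1 with 3 against 3. Of 8 shares compared, 7 reached that smallest p (0.114 adjusted over the 8). The eighth, Lmod1 among the leiomodins, was 99.3% ± 1.18 (SD, n = 3) in the controls and 99.9% ± 0.0891 with dexamethasone (exact p = 1), since Lmod2 had no count and Lmod3 had 10 over all libraries.

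Acta2 was a trace among the actins. It made up 0.176% ± 0.00826 (SD, n = 3) of the TPM of 6 actins in the controls and 0.0189% ± 0.000917 with dexamethasone. The cytoplasmic actins Actb and Actg1 made up nearly all the rest and rose slightly (log2 0.26 and 0.22). Neither rise held under a coefficient of variation fixed at 0.2 (adjusted p = 0.498 and 0.581) or the fold threshold of 1.5 (adjusted p = 1 each). Actg2, the enteric smooth muscle actin, stood at 0.253 ± 0.130 and 0.354 ± 0.120 CPM and was not called (adjusted p = 0.391, edgeR), while the skeletal and cardiac actins Acta1 and Actc1 had 12 and 2 counts over all libraries. The sources at hand do not say how reads shared by near-identical actins were assigned.

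By TPM, tropomyosin came mainly from Tpm4, a form used by non-muscle cells. It stood at 5253 TPM in the controls and 3347 TPM with dexamethasone (log2 fold change -0.65). Tpm4 has the shortest listed length of the 4 tropomyosins, 1051 bases, which raises its TPM. In CPM it stood at 2801 and 1786, beside 1016 and 1495 for Tpm3. Tpm3 went the other way, from 711.5 to 1046 TPM (log2 fold change 0.56), a rise lost against a fold of 1.5 (adjusted p = 1) and under the fixed coefficient of variation (0.0662). The share of Tpm1 in the 4 tropomyosins went from 12.2% ± 0.0188 to 7.72% ± 0.0779 (SD, n = 3), and that of Tpm2 from 10.04% ± 0.334 to 12.6% ± 0.0448. Without division by length, the change in the share of Tpm1 was -10.1 percentage points in place of -4.45.

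Calponin 1 was a minor product, 0.274% ± 0.0893 of calponin TPM in the controls and 0.122% ± 0.0265 with dexamethasone (SD, n = 3). Cnn2 went from 50.6% ± 0.752 to 33.7% ± 0.899, while Cnn3, a calponin of non-muscle and neural cells, went from 132.3 to 149 TPM (log2 fold change 0.17, not called against a fold of 1.5). These shares depend on the listed lengths, 723 bases for Cnn2 and 1990 for Cnn3. In CPM, Cnn2 stood at 50.1 and 27.9, and Cnn3 at 134 and 151. Tagln made up 15.9% ± 0.719 of the transgelins in the controls and 2.71% ± 0.0339 with dexamethasone. The remainder was Tagln2, the widely expressed form, at 263 ± 9.26 and 256 ± 3.13 CPM (log2 fold change -0.039, adjusted p = 0.253, edgeR), and Tagln3 had no count.

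Among the myosin heavy chains, Myh11 made up 0.824% ± 0.0161 of the TPM of Myh9, Myh10, Myh11 and Myh14 in the controls and 1.08% ± 0.0118 with dexamethasone (SD, n = 3). Its own level did not move beyond the spread between libraries, while Myh9, the main non-muscle heavy chain, fell from 4529 to 3037 CPM (log2 fold change -0.58). That fall was lost under the fixed coefficient of variation (adjusted p = 0.0550) and against a fold of 1.5. Myh14, another non-muscle chain, rose from 35.7 to 117 CPM (log2 fold change 1.71). Myh10, also a non-muscle chain, went from 1001 to 1113 CPM (log2 fold change 0.15, adjusted p = 1.55e-06, edgeR). That rise was lost under the fixed coefficient of variation (adjusted p = 0.732) and against a fold of 1.5. Next to Myl9, the non-muscle regulatory chains Myl12a and Myl12b stood at 91.8 and 35.4 CPM without and 88.4 and 46.7 CPM with dexamethasone, and the essential chain Myl6 at 840.1 and 764 CPM. Over the 13 tested of 18 paralogs, 7 rose, 3 fell and 3 were not called, beside 32.3% rises and 31.7% falls over all tested genes. Against a fold of 1.5, 1 rise (Myh14) and 1 fall (Tpm4) passed, where 20.0% of all genes did.

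**Figure D3:**
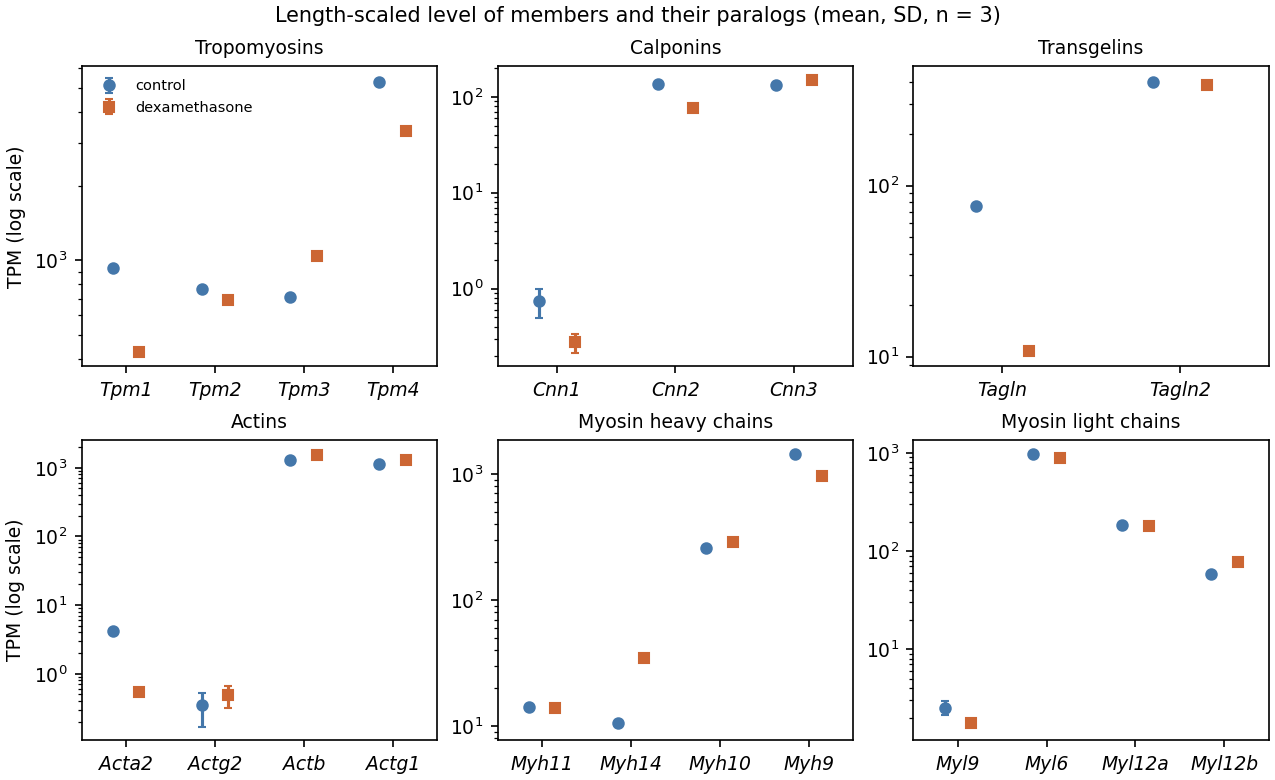
TPM on a log axis, mean with SD (n = 3), for the contractile genes and their detected paralogs in control (circles) and dexamethasone (squares) libraries. Acta2, Cnn1, Tagln and Myl9 lie below their non-muscle relatives in both groups, and Tagln falls while Tagln2 lies at 399.6 and 389 TPM.

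Genes that control myosin were next examined as a list of 19, from small GTPases and kinases to myosin phosphatase. Of the 16 tested, 9 rose, 5 fell and 2 were not called, with a median log2 fold change of 0.15. Against a fold of 1.5, 3 rises and 2 falls passed. For this and the other gene lists, the shares over all tested genes were 32.3% rises and 31.7% falls. Past a fold of 1.5 the share over all tested genes was 20.0%. Cald1, which encodes caldesmon, the actin-binding brake on myosin, fell from 5084 ± 247 to 1879 ± 45.5 CPM (SD, n = 3; log2 fold change -1.44). Rock2, a kinase that keeps myosin phosphorylated, rose from 1313 ± 48.7 to 3449 ± 117 CPM (log2 fold change 1.39), and Rhob, a small GTPase, from 35.5 ± 1.76 to 76.7 ± 2.13 CPM (log2 fold change 1.11). Mylk, the kinase of the regulatory light chain, and Rgs2, which turns off the G proteins that drive contraction, were picked after their values were seen. Mylk fell from 2.40 ± 0.125 to 0.891 ± 0.291 CPM, and Rgs2 rose from 0.502 ± 0.214 to 9.66 ± 0.225 CPM.

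Dense bodies and focal adhesions anchor contractile filaments to each other and to the membrane. Of 28 tested among 30 listed, 13 rose, 14 fell and 1 was not called, with a median log2 fold change of -0.13, and 8 rises and 6 falls passed against a fold of 1.5. Synm and Synpo2, both among the 3 with the smallest p, rose. Synm, which encodes the intermediate filament protein synemin, went from 6.07 ± 0.492 to 192 ± 2.33 CPM (SD, n = 3; log2 fold change 4.98). Synpo2, which encodes synaptopodin-2, an actin-bundling protein of muscle, went from 1.19 ± 0.120 to 28.1 ± 0.828 CPM (log2 fold change 4.56). Actn1 and Zyx, an actin cross-linker and an adhesion protein picked after their values were seen, fell (log2 -1.01 and -0.92).

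The transcription factors around myocardin moved both ways. Of 18 tested among 24 listed, 7 rose, 7 fell and 4 were not called, and the median log2 fold change was -0.0030. Rises and falls were also about equally common over all tested genes, at 32.3% and 31.7%. Prrx1, a mesenchymal homeobox factor, fell from 727 ± 19.2 to 75.6 ± 2.51 CPM (SD, n = 3; log2 fold change -3.27). Klf4, a factor known to oppose the contractile programme, rose from 14.3 ± 0.515 to 31.4 ± 0.920 CPM (log2 fold change 1.14), and Mef2d fell from 35.6 ± 0.258 to 19.2 ± 1.57 CPM (log2 fold change -0.89). Srf and Mrtfa, the partner of myocardin and its relative, were named for their role after their values were seen. Srf was at 26.7 ± 1.32 and 30.3 ± 1.31 CPM (log2 0.18), and Mrtfa at 31.5 ± 1.59 and 23.0 ± 1.20 CPM (log2 -0.45). Both changes were called (adjusted p = 0.00548 and 6.23e-09, edgeR), and neither gene was among the 2 rises and 2 falls that passed against a fold of 1.5.

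Transforming growth factor beta is the best known inducer of Acta2 and Tagln in stromal cells, and a list of 16 held its ligands, receptors and Smads with targets of the myocardin-related factors and YAP. All 16 were tested, of which 6 rose, 9 fell and 1 was not called, with a median log2 fold change of -0.43. In the test against a fold of 1.5, 4 rises and 6 falls passed, where 20.0% of all genes did. Smad3, a signal carrier, fell from 135 ± 4.74 to 56.2 ± 0.530 CPM (SD, n = 3; log2 fold change -1.26), and Ccn1, a matricellular target of YAP and of serum response factor, from 65.7 ± 1.27 to 18.1 ± 0.146 CPM (log2 fold change -1.86). Tgfbr3, the co-receptor betaglycan, rose from 79.3 ± 1.15 to 243 ± 0.807 CPM (log2 fold change 1.62). The ligands differed in direction: Tgfb1 fell (log2 -1.99) while Tgfb2 rose (log2 2.19), both picked after their values were seen.

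**Figure D4:**
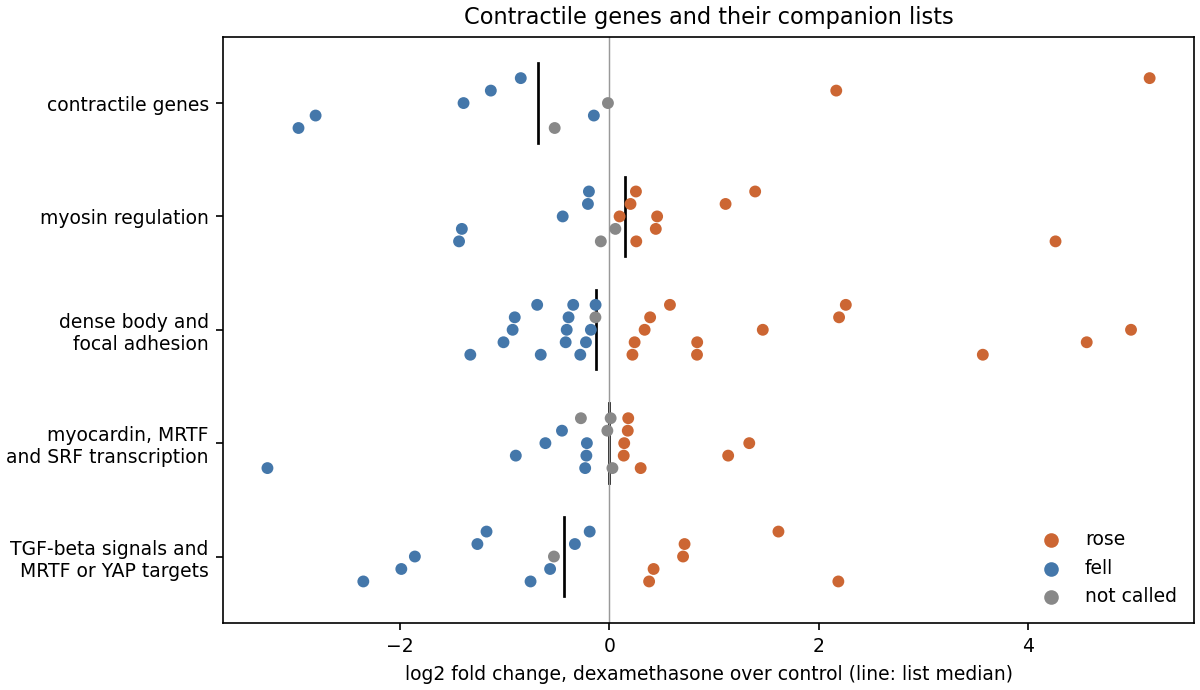
Log2 fold change of dexamethasone over control for each tested gene of the contractile set and of 4 companion lists, coloured by call, with a black line at each list's median. Every list holds rises and falls, and the medians run from -0.68 for the contractile genes to 0.15 for myosin regulation.

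Markers of mature smooth muscle and of mural cells were read beside these results, since in bulk RNA fewer cells of a type and less RNA per cell cannot be told apart. Of 8 tested among 10 late smooth muscle markers, which include Cnn1 and Myh11, 3 rose, 3 fell and 2 were not called. Their summed level was 451 to 457 CPM in the controls and 730.2 to 736 CPM with dexamethasone. Sncg, which encodes gamma-synuclein, carried most of the difference in that sum and rose from 21.5 ± 1.19 to 259.9 ± 1.27 CPM (SD, n = 3). Synpo2 rose as given above, and Itga8, an integrin of contractile cells, fell from 14.6 ± 1.51 to 5.83 ± 0.459 CPM. Kcnmb1, the potassium channel subunit of smooth muscle, had no count in any library, so that up to 0.170 CPM would have gone unseen in the shallowest library. Of 7 tested among 12 pericyte and mural markers, 3 rose and 4 fell, and their summed level was 653 to 676 CPM in the controls and 182 to 201 CPM with dexamethasone. Pdgfrb, the receptor on pericytes and marrow stroma, carried most of it and fell from 616 ± 11.8 to 137 ± 7.94 CPM. Cspg4 fell from 24.6 ± 1.10 to 5.67 ± 0.163 CPM, Steap4 rose from 0.0504 ± 0.0507 to 31.2 ± 0.812 CPM, and the defining pericyte genes Rgs5 and Kcnj8 had no count. The other rises were Notch3, with 64 counts over all libraries, and Aoc3, from 0.686 to 2.84 CPM, both named after their values were seen. Of the exon length of Aoc3, 2065 bases (52.5%) overlap exons of AC123346.1 on the same strand. AC123346.1 stood at 77.5 and 82.7 CPM, so the level and rise of Aoc3 are uncertain. The part of mural cells in the contractile results was not tested.

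Macrophage markers were scarce, with a summed level over 12 genes of 11.9 to 12.7 CPM in the controls and 9.02 to 9.80 CPM with dexamethasone. Cd14, named after its values were seen, carried most of that sum, at 7.27 ± 0.468 and 7.65 ± 0.187 CPM (SD, n = 3). It was not called (adjusted p = 0.544, edgeR). Of 6 tested, 3 fell (Cd74, Cd68 and Lyz2) and 3 were not called, and the defining genes Adgre1 and Tyrobp had no count. Their part in the contractile results was not tested.

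Genes most like 3 of the members were found by the Euclidean distance between the 6 log2 CPM values, each less its own mean, among 7536 conventionally named genes outside the lists with at least 10 CPM on average. Because these 6 libraries form 2 tight groups, likeness here is mostly likeness in the size of the change. Nearest to Acta2 were P4ha3, a collagen prolyl hydroxylase subunit, and Tlr2, a receptor for bacterial lipoproteins (distances 0.152 and 0.153, log2 fold changes -2.81 and -2.91). Nearest to Tagln were Pde4d, a cyclic AMP phosphodiesterase, and Chst11, a chondroitin sulphotransferase (distances 0.0807 and 0.0866, log2 fold changes -2.82 and -2.79). Nearest to Lmod1 were Slc39a8, a zinc and manganese transporter, and Crispld2, a secreted protein (distances 0.269 and 0.271, log2 fold changes 5.10 and 5.30).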

How the data were processed

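The authors deposited read counts per gene for the 6 libraries in a single table with exon coordinates and summed exon length, per the file headers. Not known are the aligner, counting program, strand setting and handling of shared reads (not given in the sources used here). The submitters' processing notes name mm10, a mouse build, but the table holds rat symbols. All 10 members were in a RefSeq rat gene table (GRCr8), each on the chromosome that the count table lists for it. Coordinates are the deposited ones, in a rat build not given in the sources used here. No sequences are printed.

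Counts were filtered with filterByExpr (14111 genes kept), scaled by TMM and tested in edgeR 4.0.16 (R 4.3.3) with a robust quasi-likelihood fit, dexamethasone against control, no covariate, Benjamini-Hochberg over all genes. Fold changes are dexamethasone over control. SE values come from log2 CPM (prior count 2) of the replicates. TPM was computed from counts and listed lengths, and is inflated where a gene model is short. Of values of 1 to 20 counts, 70.3% were even, so low counts were read as pairs (a choice made with the values known), and intervals, which cover counting error only, used halved counts. The script was checked on simulated data. DESeq2 1.42.0 and limma 3.58.1 were alternatives.

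Named were all members and detected paralogs, and from each list the 3 called genes with the smallest p, other genes only where stated; 1 gene that this rule names is not reported here. Members and lists were chosen with earlier results of these data known. Between libraries of a group, chi-square per degree of freedom was 2.75 to 4.35 on counts that were not halved. Counting reads in pairs raises this value, so it does not measure the excess over sampling noise. Only 0.507% to 1.29% of the genes compared had the same count in 2 libraries of a group, so none was a copy.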

Additional observations from a re-analysis of the deposited data

How the results depend on the processing

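In each of 15 alternatives, 2 contractile genes rose, and between 4 and 7 fell. The log2 fold change ranged from -3.01 to -2.92 for Acta2, -2.82 to -2.77 for Tagln, -1.15 to -1.09 for Tpm1, -0.86 to -0.81 for Cnn2, 5.08 to 5.22 for Lmod1 and 2.01 to 2.45 for Myocd, and these 6 were called in all 15. Myh11 was called in none (-0.033 to 0.025), Tpm2 in 13 and Cnn1 in 13 of 14, as halved counts left it below the filter. Myl9 was called in 2 (-0.63 to -0.40). Over all genes, rises and falls numbered 1993 and 1700 with the coefficient of variation set to 0.2, and 1549 and 1278 against a fold of 1.5, which demand more of each gene by construction. Library size alone moved the median of all genes to 0.038 and gave 4981 rises and 4032 falls, 55.3% of calls upward. Without division by length, the change in share was -0.172 percentage points for Acta2, -11.6 for Cnn2, -10.1 for Tpm1 and 1.82 for Tpm2.

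Leaving out 1 library at a time gave 4334 to 4464 rises and 4218 to 4333 falls over all genes, and 6 to 7 falls among the contractile genes. The replicate numbers did not pair the libraries (correlations of same-numbered deviations -0.0068, 0.018 and 0.020). With the replicate block, 4553 genes rose and 4438 fell, with 2 rises and 6 falls among the contractile genes. Of 360 list counts recomputed, 331 stayed within 1.5 times, and of 747 fold changes of 50 named genes, 26 lost their call and 2 gained one. Depth limits Cnn1, Myl9, Acta2 and Myocd most.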

Other observations

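Markers of other muscle and of vessel lining were also read. Of 11 skeletal muscle genes in the table, 6 were tested, of which 1 rose, 2 fell and 3 were not called. Their summed level was 27.0 to 28.4 CPM in the controls and 17.5 to 18.5 CPM with dexamethasone, most of it from Tnnt3, a fast troponin T, which fell from 24.0 ± 0.903 to 14.6 ± 0.579 CPM (SD, n = 3). Myod1, the myogenic factor, fell from 2.27 ± 0.432 to 0.715 ± 0.265 CPM, and Neb, which encodes nebulin, rose from 0.544 ± 0.250 to 1.43 ± 0.210 CPM, while Myog and Myf5 had no count. Of 8 cardiac genes, 2 were tested. Tnnt2 fell from 1.10 ± 0.218 to 0.620 ± 0.295 CPM, a call lost with DESeq2 (adjusted p = 0.0818), against a fold of 1.5 (0.335) and without control replicate 1 (0.103) or dexamethasone replicate 1 (0.205). Of 9 endothelial genes, 2 were tested: Vwf fell from 0.908 ± 0.160 to 0.1995 ± 0.0915 CPM, and Tek rose from 0.782 ± 0.245 to 1.37 ± 0.217 CPM. The call of Tek was lost against a fold of 1.5 (adjusted p = 0.312) and without control replicate 3 (0.0852) or dexamethasone replicate 1 (0.0512). Emcn had no count. Cldn5 had none either, but its whole exon length (1425 bases) overlaps exons of Cdc45 on the other strand, so its level cannot be read from these counts.

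Des, which encodes the muscle intermediate filament desmin, was at 201 ± 9.26 CPM in the controls and 172 ± 2.97 CPM with dexamethasone (SD, n = 3), far above Acta2, Cnn1 and Myl9 in both groups. By length-scaled level it stood at 182 and 156 TPM, beside 4.26 and 0.541 TPM for Acta2. Des was picked after its values were seen.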
